A study of Mus musculus with 10 samples.

Results

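Cadherins and protocadherins are calcium-dependent adhesion proteins of the cell surface, and their genes were followed here in the cortical hem (CH) of mouse embryos with and without Lmx1a. Members were taken by name as every gene whose symbol is Cdh followed by a number or begins with Pcdh, which gave 93 of the 52227 genes in the count table, under 92 symbols because Pcdha11 is held by 2 identifiers. They comprise 23 cadherins, 58 clustered protocadherins and 12 non-clustered protocadherins. The CH is a strip at the medial edge of the telencephalon that secretes Wnt and Bmp proteins, borders the choroid plexus and releases Cajal-Retzius neurons, and the study asked what the LIM-homeodomain transcription factor Lmx1a controls there. The CH of 5 wild-type and 5 Lmx1a-/- embryos (e13.5) was cut out whole by laser capture, with its borders read from alternate sections stained for Lmx1a, and the sections of 1 embryo were pooled into 1 library. The Lmx1a null is the drJ allele, a germline mutation that is not limited to the CH, and all embryos were on a mixed C57Bl6, FVB and CD1 background and of either sex.

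Classical cadherins bind the same or a related cadherin on the next cell and are tied to actin through beta- and alpha-catenin, and neuroepithelia are known for a junctional belt built on N-cadherin, the product of Cdh2. Non-clustered (delta) protocadherins are dispersed genes that mark regions of the embryonic brain and act in cell sorting, migration and axon growth. Clustered protocadherins lie in tandem as the Pcdha, Pcdhb and Pcdhg arrays, in which each variable exon has its own promoter, single neurons use a small set of them, and the matching of isoforms on contact serves self-avoidance. The C-type isoforms at the end of the Pcdha and Pcdhg arrays are used more uniformly among cells.

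Libraries held 19145952 to 36462780 counts, and 21664 genes passed the filter of at least 10 counts in at least 3 libraries. Transcripts of Y-linked genes were present in wild-type embryo 1 and in all 5 Lmx1a-/- embryos and absent or nearly so in wild-type embryos 2 to 5, which instead had 4515 to 5127 CPM of Xist (CPM is the count scaled to a fixed library total, here without TMM factors). Sex and genotype can therefore be compared apart only through wild-type embryo 1. Lmx1a itself was read at 45.6 to 90.8 normalized CPM in wild-type libraries and at 89.9 to 145 normalized CPM in Lmx1a-/- libraries, which overlap (log2 fold change 0.68, edgeR FDR = 0.066), and counts per gene cannot tell drJ transcripts from normal ones. In bulk tissue, fewer cells of a type and less RNA per cell cannot be told apart.

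Of the 93 members, 83 passed the filter. At a false discovery rate (FDR) under 0.1 in edgeR's quasi-likelihood test, 2 members rose in the Lmx1a-/- CH, Cdh6 and Pcdh7, and 4 fell, Pcdhb19, Pcdhb21, Pcdhb22 and Pcdhgb7. The background over all 21664 genes was 4.02% called in either direction, 1.72% higher and 2.29% lower, against 7.23% of the members in either direction. At an unadjusted p under 0.05 there were 17 members lower and 8 higher, against 8.7% of all genes lower, 7.66% higher and 16.4% in either direction. The ranges of the genotypes did not overlap for 5 members (Cdh6, Pcdhb19, Pcdhb21, Pcdhgc4 and Pcdhga5), against 4.44% of all genes. The median log2 fold change of Lmx1a-/- over wild-type was 0.16 for the 19 cadherins tested, 0.41 for the 12 non-clustered protocadherins and -0.29 for the 52 clustered protocadherins tested, beside -0.0049 over all genes. The plot of the called members by embryo shows the values behind these calls.

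**Figure D1:**
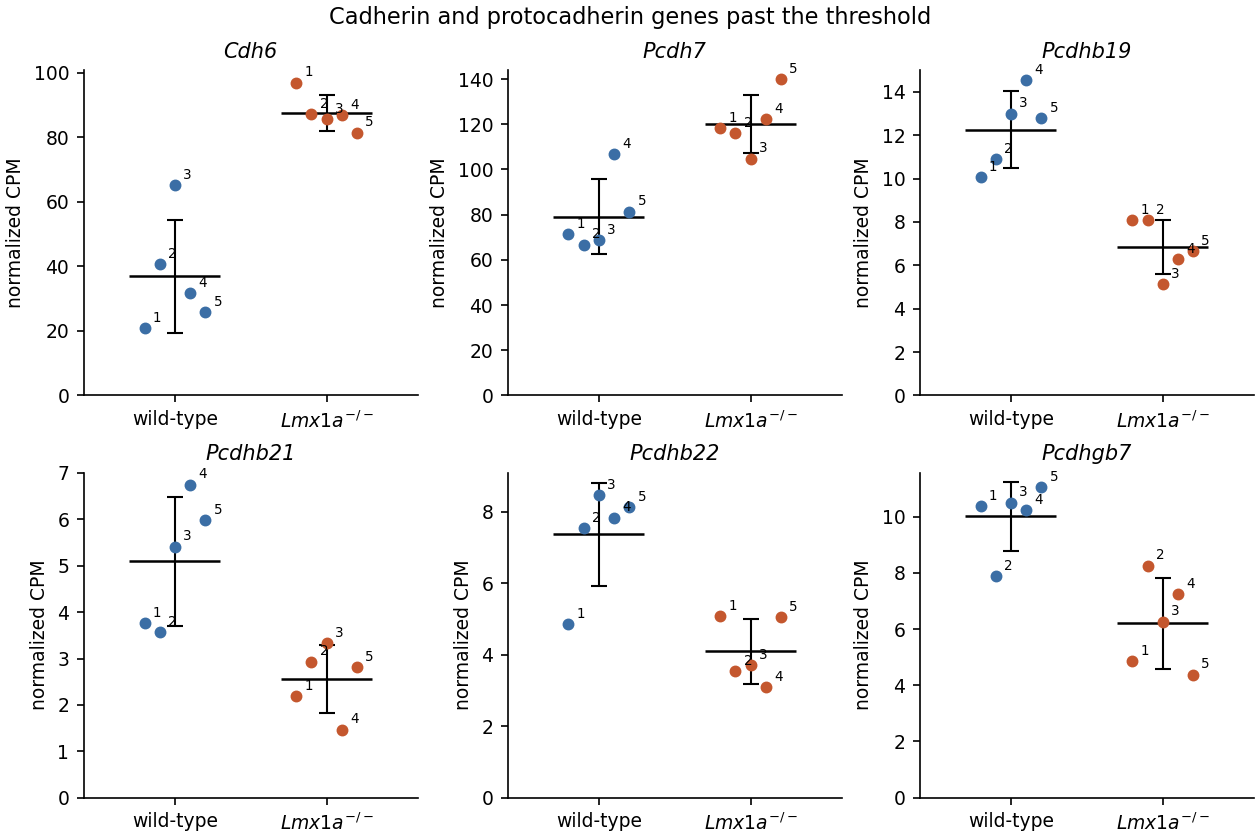
Normalized CPM of the 6 members past the threshold, by genotype. Each point is 1 embryo, labeled with its number, and black lines give the mean and SD of 5 embryos. The genotypes do not overlap for Cdh6, Pcdhb19 and Pcdhb21, while for Pcdh7, Pcdhb22 and Pcdhgb7 a single wild-type embryo (4, 1 and 2) reaches the Lmx1a-/- range.

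Expressed per kb of exon, which allows levels of different genes to be set side by side, the wild-type CH was led by Cdh2 at 58.3 CPM per kb. It was followed by Cdh11 at 22.6 CPM per kb, Pcdhgc3 at 20.0, Pcdh18 at 13.9, Pcdh19 at 11.4, Cdh4 at 7.97 and Pcdh7 at 7.45 CPM per kb. For the clustered genes only exon bases not shared with another gene on either strand were used, because reads in shared exons cannot be given to a single gene. The other genes were divided by all their exon bases. For Pcdhgc3 this left 1821 of 5499 bases, with 3678 shared on either strand and 2119 shared on its own strand. If strand was kept in counting, its value would be lower, so its place in this order is uncertain. Pcdh7 shares 2235 of its 10604 bases on the opposite strand. If strand was not kept, its value could be higher, so its place after Cdh4 is uncertain too. Cdh6 stood at 4.09 CPM per kb, 20th of the 83 tested members in wild-type, and at 9.70 CPM per kb in Lmx1a-/-. The members that dominate by level are therefore the neuroepithelial N-cadherin, the mesenchymal cadherin Cdh11, a C-type gamma isoform and delta protocadherins, and most Pcdha and Pcdhb genes are minor transcripts.

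Cdh6, a type II classical cadherin that marks compartments of the developing telencephalon and was first described in kidney, was the cadherin that rose. It was measured at 20.9, 40.7, 65.1, 31.8 and 25.9 CPM in wild-type embryos 1 to 5 and at 96.9, 87.1, 85.6, 86.8 and 81.5 CPM in Lmx1a-/- embryos 1 to 5. All 5 Lmx1a-/- embryos lay above the highest wild-type embryo, and the Lmx1a-/- values were close together while wild-type values were spread. The means were 36.9 ± 17.4 and 87.6 ± 5.67 CPM (SD, n = 5 each), a log2 fold change of 1.25 ± 0.24 (SE; FDR = 0.016 in edgeR). Cdh6 kept its call in each of the 10 fits that left out 1 library, and without wild-type embryo 3 its log2 fold change was 1.55. Against wild-type embryo 1 alone, the wild-type library with Y-linked transcripts and the lowest in Cdh6, it was 2.06. That arm holds 1 library, whose spread is assumed to be that of the Lmx1a-/- group, so it is given as a value without a call, and with the Xist level in a model of all 10 libraries it was 2.07 (edgeR FDR = 0.13).

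Markers of the neighboring cortical neuroepithelium also differed between genotypes. All 8 genes of that marker list had a higher mean in Lmx1a-/-, 2 of them past the threshold, beside 1.72% of all genes called higher. Their summed level was 456 to 866 CPM in wild-type and 811 to 1067 CPM in Lmx1a-/- libraries. Wild-type embryo 3 had both the highest wild-type Cdh6 and the highest wild-type sum of this list (866 CPM), together with the lowest sums of all 10 libraries for the cortical hem list (2299.6 CPM, against 2709.6 to 4375 CPM elsewhere) and for the choroid plexus list (97.3 CPM, against 126 to 460.3 CPM elsewhere). Among the other libraries the sum and Cdh6 kept the same order only in part. Wild-type embryo 1 had the next highest wild-type sum (776 CPM) and the lowest Cdh6. Wild-type embryo 4 had the lowest sum (456 CPM) and a Cdh6 level above embryos 1 and 5. In Lmx1a-/- embryos 1, 2 and 4 the sum (1067, 1052 and 935 CPM) and Cdh6 ran in the same order, above embryos 3 and 5. Lmx1a-/- embryo 3 had the lowest Lmx1a-/- sum (811 CPM) and embryo 5 the lowest Lmx1a-/- Cdh6 (81.5 CPM). With the choroid plexus level in the model, the log2 fold change of Cdh6 was 0.72 (edgeR FDR = 0.67), and the part of neighboring tissue in the result was not tested.

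The other type II cadherins did not pass the threshold. The most abundant of them was Cdh11, which is known from mesenchyme and also present in neural tissue, averaging 202 ± 23.0 CPM in the wild-type CH and 169 ± 23.7 CPM in the Lmx1a-/- CH (log2 fold change -0.25 ± 0.11, edgeR FDR = 0.25). Its groups overlapped. The mesenchyme and meninges list had 3 of 12 genes called lower, beside 2.29% of all genes. That list summed to 348 to 953 CPM in wild-type and 264 to 533 CPM in Lmx1a-/-, with a part in the Cdh11 value that was not tested. Cdh7, a cadherin of neural crest and neural tube, had the next largest difference after Cdh6 among those above 5 CPM, at 6.89 ± 1.99 against 11.7 ± 4.91 CPM (log2 fold change 0.75 ± 0.29, edgeR FDR = 0.21).

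Cdh9 was at 4.11 ± 1.44 against 6.19 ± 2.40 CPM, Cdh10 at 7.23 ± 3.28 against 8.52 ± 2.21 CPM and Cdh8 at 7.05 ± 3.94 against 7.94 ± 5.29 CPM (wild-type first), all with wide overlap. Cdh24 was the most even of these neural cadherins, at 16.7 ± 3.95 and 16.1 ± 5.39 CPM. Cdh5, the VE-cadherin of endothelial junctions, averaged 19.0 ± 11.0 CPM in the wild-type CH and 15.8 ± 4.59 CPM in the Lmx1a-/- CH (edgeR FDR = 0.78), and none of the 9 endothelial markers was called at FDR under 0.1. The remaining type II genes, Cdh12, Cdh18, Cdh19, Cdh20 and Cdh22, had means under 2 CPM in both genotypes.

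**Figure D2:**
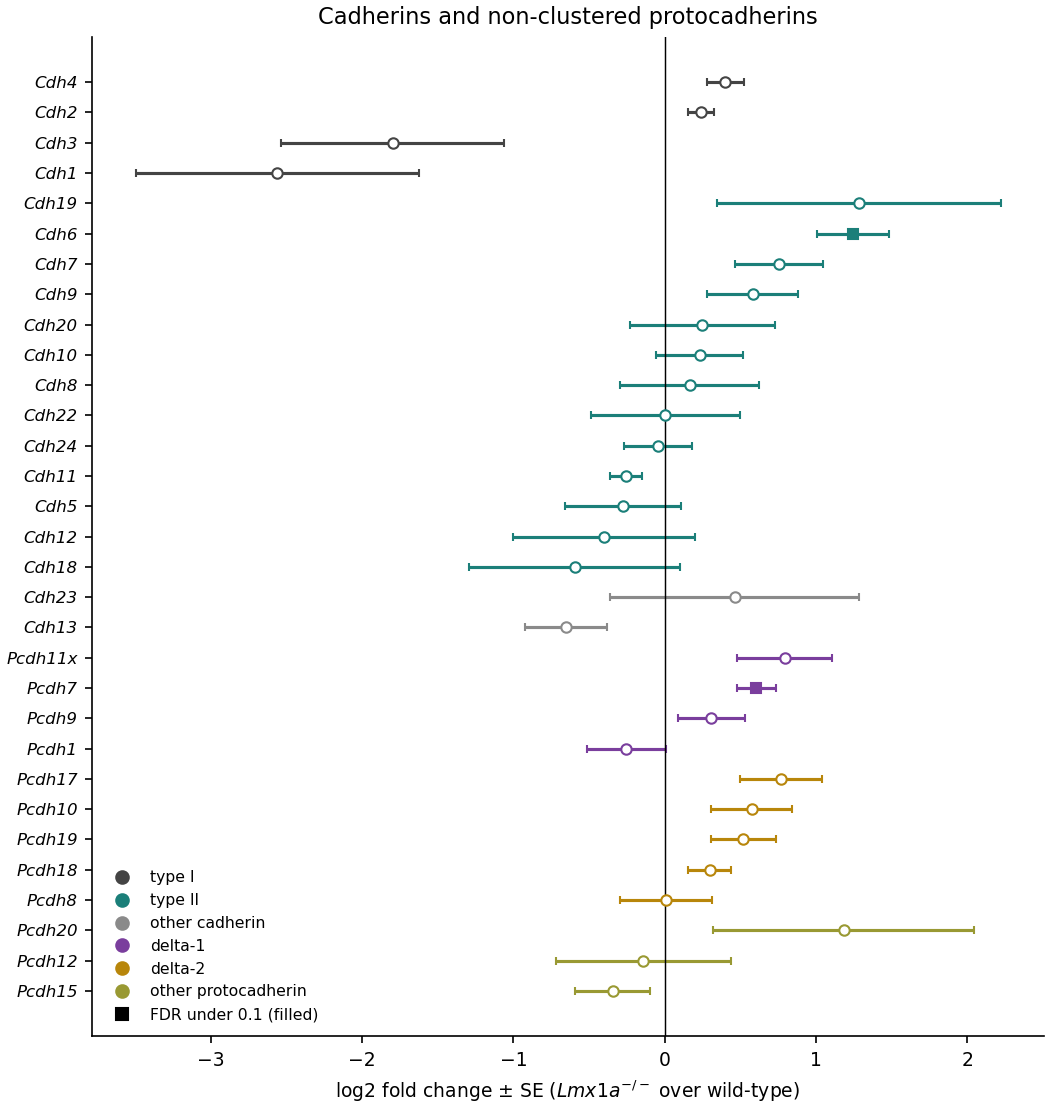
Log2 fold change of Lmx1a-/- over wild-type with its SE for the tested cadherins and non-clustered protocadherins, sorted within each family. Filled squares mark Cdh6 (1.25) and Pcdh7 (0.61), the members past FDR 0.1, and Cdh1 (-2.56) and Cdh3 (-1.80) have the widest SE bars among the type I cadherins.

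Among type I cadherins, Cdh2 and Cdh4 were higher in the mean and Cdh1 and Cdh3 lower, and none passed the threshold. Cdh2 was measured at 480.0, 500.0, 404, 410.5 and 556 CPM in wild-type embryos 1 to 5 and 546, 582, 525.96, 571 and 549.9 CPM in Lmx1a-/- embryos 1 to 5. Wild-type embryo 5 lay within the Lmx1a-/- range and the other 4 below it, for means of 470.1 ± 63.7 and 555 ± 22.1 CPM (log2 fold change 0.24 ± 0.09, edgeR FDR = 0.18).

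Cdh4 encodes R-cadherin, a cadherin of the retina and forebrain. It was measured at 52.6, 60.8, 55.2, 58.4 and 62.2 CPM in wild-type and 60.1, 64.3, 74.7, 89.7 and 93.0 CPM in Lmx1a-/- embryos. Lmx1a-/- embryo 1 fell inside the wild-type range and the other 4 lay above it (log2 fold change 0.40 ± 0.12, edgeR FDR = 0.11), and DESeq2 placed Cdh4 past the threshold (FDR = 0.037).

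Cdh1 and Cdh3, the E- and P-cadherin of epithelia including skin, followed 1 library. Cdh1 was at 5.45, 13.9, 14.5, 109.9 and 3.47 CPM in wild-type and 4.39, 0.82, 15.2, 2.35 and 1.81 CPM in Lmx1a-/- embryos, and Cdh3 at 3.21, 19.2, 10.3, 51.6 and 3.77 CPM in wild-type and 8.25, 2.88, 10.4, 1.495 and 2.05 CPM in Lmx1a-/- embryos. Wild-type embryo 4 was far above the rest for both genes, and the other ranges overlapped. The log2 fold change was -2.56 ± 0.94 for Cdh1 (edgeR FDR = 0.19) and -1.80 ± 0.74 for Cdh3 (edgeR FDR = 0.24), and without wild-type embryo 4 these became -0.91 and -0.85.

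A list of 10 genes of surface epithelium (keratins, Trp63, desmosomal and epithelial genes, chosen after the values of Cdh1 were seen) summed to 81.5, 219, 187, 1697 and 53.8 CPM in wild-type and 77.9, 9.84, 145, 8.45 and 18.4 CPM in Lmx1a-/- embryos. The same wild-type embryo 4 led this sum. All 10 genes had a lower mean in Lmx1a-/- and 2 passed the threshold, beside 2.29% of all genes called lower. With the level of this list in the model, Cdh1 and Cdh3 had log2 fold changes of 0.47 and 0.46 (edgeR FDR = 0.88 and 0.89), so their direction turned.

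**Figure D3:**
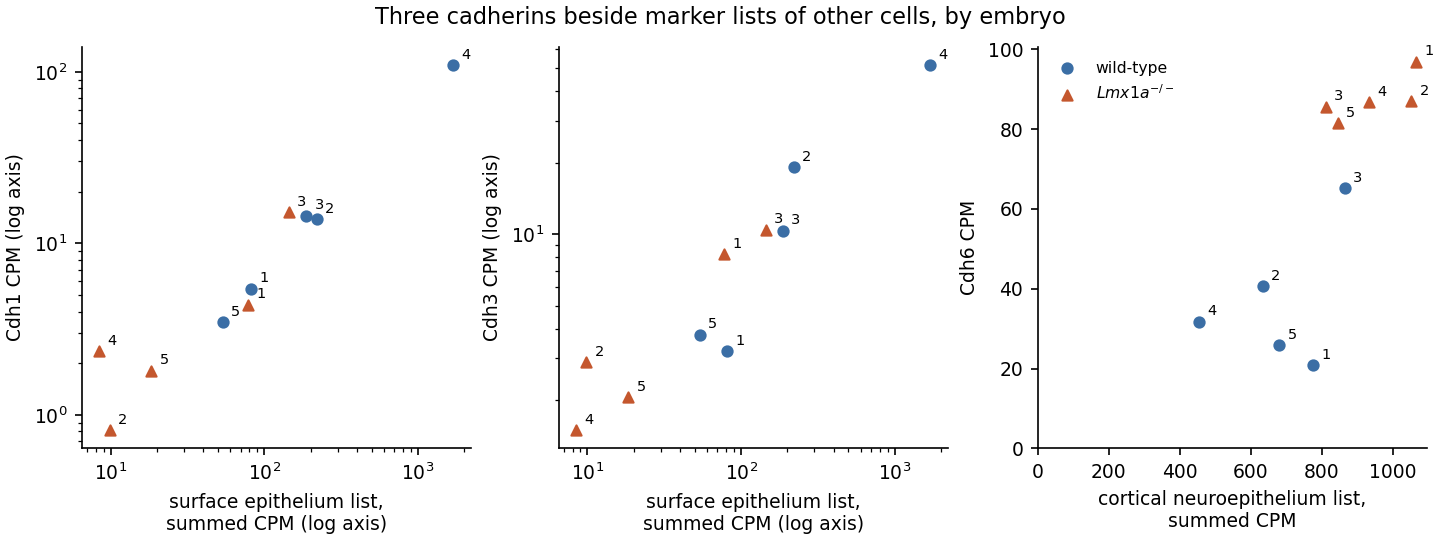
CPM of Cdh1 and Cdh3 against the summed CPM of a surface epithelium list (both axes logarithmic), and of Cdh6 against the summed CPM of a cortical neuroepithelium list (linear axes). Each point is 1 embryo with its number. Wild-type embryo 4 holds the highest Cdh1 (109.9 CPM), Cdh3 (51.6 CPM) and surface epithelium sum (1697 CPM), and wild-type embryo 3 the highest wild-type Cdh6 (65.1 CPM) and neuroepithelium sum (866 CPM).

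Of the 5 cadherins outside the classical types, Cdh13 and Cdh23 passed the filter. Cdh13 encodes T-cadherin, which is held in the membrane by a lipid anchor, and was at 15.4, 18.1, 25.3, 14.8 and 14.8 CPM in wild-type and 4.65, 13.0, 9.54, 14.1 and 15.1 CPM in Lmx1a-/- embryos. Only Lmx1a-/- embryo 5 reached the wild-type range (log2 fold change -0.65 ± 0.27, edgeR FDR = 0.25). Cdh23 of the hair cell tip link was under 1 CPM in every library. Cdh15 of muscle, Cdh16 of kidney, Cdh17 of gut and Cdh26 had too few counts to be tested.

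Pcdh7 was the non-clustered protocadherin that rose. It belongs to the delta-1 group and was measured at 71.3, 66.7, 68.7, 106.9 and 81.4 CPM in wild-type embryos 1 to 5 and 118, 116, 105, 122 and 140.0 CPM in Lmx1a-/- embryos 1 to 5. Wild-type embryo 4 exceeded Lmx1a-/- embryo 3, and the remaining values were separated. The means were 78.99 ± 16.6 and 120.2 ± 12.8 CPM (SD, n = 5 each; log2 fold change 0.61 ± 0.13, edgeR FDR = 0.026), the call held in each of the 10 fits that left out 1 library, and against wild-type embryo 1 alone, an arm of 1 library that carries no call, the log2 fold change was 0.75. With the Xist level in the model of all 10 libraries it was 0.78 (edgeR FDR = 0.33). Of its 10604 exon bases, 2235 are shared with 4932441J04Rik on the opposite strand, and reads from the pair could not be separated if strand was not kept.

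The promoters of Cdh6 and Pcdh7, the members that rose, are shown because the CH is a source of Wnt proteins. Sequences are from RefSeq (GRCm38.p6), 5′ to 3′ on the gene's strand, and capitals mark CTTTG on either strand, the core bound by TCF/LEF factors. The window lies at chr15:13173676-13173925 (minus strand) for Cdh6 and at chr5:57717831-57717966 (plus strand) for Pcdh7, in each case before the first annotated exon.
Cdh6: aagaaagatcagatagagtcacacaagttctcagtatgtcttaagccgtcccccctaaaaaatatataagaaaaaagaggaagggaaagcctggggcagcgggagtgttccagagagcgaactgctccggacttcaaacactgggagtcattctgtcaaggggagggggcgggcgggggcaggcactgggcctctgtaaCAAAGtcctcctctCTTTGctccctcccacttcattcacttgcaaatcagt
Pcdh7: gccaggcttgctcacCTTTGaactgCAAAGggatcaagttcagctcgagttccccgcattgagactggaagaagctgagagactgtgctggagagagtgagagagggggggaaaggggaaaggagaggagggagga
Each window held 2 matches to CTTTG. The motif is short and common, occurring in 48.6% of all 32851 promoter windows of 250 bases and in 32.0% of those of 136 bases. TAATTA, a homeodomain core, was in neither window, and it occurs in 4.84% and 2.95% of all windows of these lengths.

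The other delta protocadherins had higher means in Lmx1a-/- than in wild-type except Pcdh1, and none of them passed the threshold. In the delta-2 group all 5 genes had higher means, with a median log2 fold change of 0.52, and 2 were at an unadjusted p under 0.05. At that p, 7.66% of all genes were higher. Pcdh17, which acts in the grouping of axons, was at 63.8, 32.5, 96.2, 55.1 and 62.65 CPM in wild-type and 131, 162, 73.6, 72.5 and 90.5 CPM in Lmx1a-/- embryos. Wild-type embryo 3 lay inside the Lmx1a-/- range and the other 4 below it (log2 fold change 0.77 ± 0.27, edgeR FDR = 0.17).

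Pcdh19, a partner of N-cadherin whose human ortholog is an epilepsy gene, was at 148, 72.3, 177, 87.9 and 109.7 CPM in wild-type and 192, 217, 132, 164 and 148 CPM in Lmx1a-/- embryos (log2 fold change 0.52 ± 0.22, edgeR FDR = 0.25). Pcdh19 is X-linked. Wild-type embryo 1, with Y-linked transcripts, and wild-type embryo 3, with Xist, both lay inside the Lmx1a-/- range. Pcdh11x, also X-linked, was at 4.67, 4.06, 11.5, 4.36 and 4.77 CPM in wild-type and 12.4, 13.4, 8.38, 5.84 and 11.2 CPM in Lmx1a-/- embryos (log2 fold change 0.79 ± 0.31, edgeR FDR = 0.22). Here wild-type embryo 1 lay below every Lmx1a-/- embryo, and wild-type embryo 3 stood among them.

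Pcdh10 was at 20.7 ± 7.51 against 30.9 ± 11.5 CPM, Pcdh18 at 74.9 ± 14.4 against 91.9 ± 14.9 CPM, Pcdh9 at 24.4 ± 10.3 against 30.2 ± 2.43 CPM and Pcdh8 at 2.90 ± 1.00 against 2.93 ± 0.93 CPM (wild-type first). These groups overlapped in every case. Pcdh1 was at 8.65 ± 1.93 and 7.27 ± 2.75 CPM. Wild-type embryo 3 again decided calls, since without it Pcdh9, Pcdh11x, Pcdh17 and Pcdh19 also passed the threshold, with log2 fold changes of 1.19 for Pcdh11x, 0.98 for Pcdh17 and 0.70 for Pcdh19 (edgeR FDR = 0.022, 0.069 and 0.081). Among the 83 tested members, wild-type embryo 3 held the highest wild-type value for 32, including 8 of the 13 type II cadherins. How often this embryo was the highest over all genes was not counted, so the number shows nothing particular to the members.

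Outside the delta groups, Pcdh15, the partner of Cdh23 in the tip link, was at 20.3 ± 7.13 and 16.1 ± 4.70 CPM. Pcdh12, an endothelial protocadherin, was at 2.31 ± 1.41 and 2.12 ± 0.87 CPM, and its lowest library, wild-type embryo 4 at 0.10 CPM, was also the lowest in Cdh5. Pcdh20 stayed under 2 CPM in every library.

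The clustered protocadherins were lower in Lmx1a-/- where they were called, with 4 lower and none higher of 52 tested. The share over all genes was 2.29% lower and 1.72% higher. At an unadjusted p under 0.05, 13 were lower and none higher, beside 8.7% of all genes lower and 7.66% higher. Summed over each array, Pcdhb was at 81.7, 81.7, 113, 116 and 106 CPM in wild-type and 71.7, 70.5, 64.2, 57.6 and 75.4 CPM in Lmx1a-/- embryos. The sum of the Pcdhg genes was 211, 224, 219, 216 and 217 CPM in wild-type and 190.3, 184, 209, 192 and 179 CPM in Lmx1a-/- embryos. The genotypes did not overlap in either sum, with log2 ratios of the means of -0.55 for Pcdhb and -0.19 for Pcdhg, given as a description without a test. The Pcdha sum was at 11.4 ± 4.00 and 10.6 ± 2.06 CPM and overlapped.

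**Figure D4:**
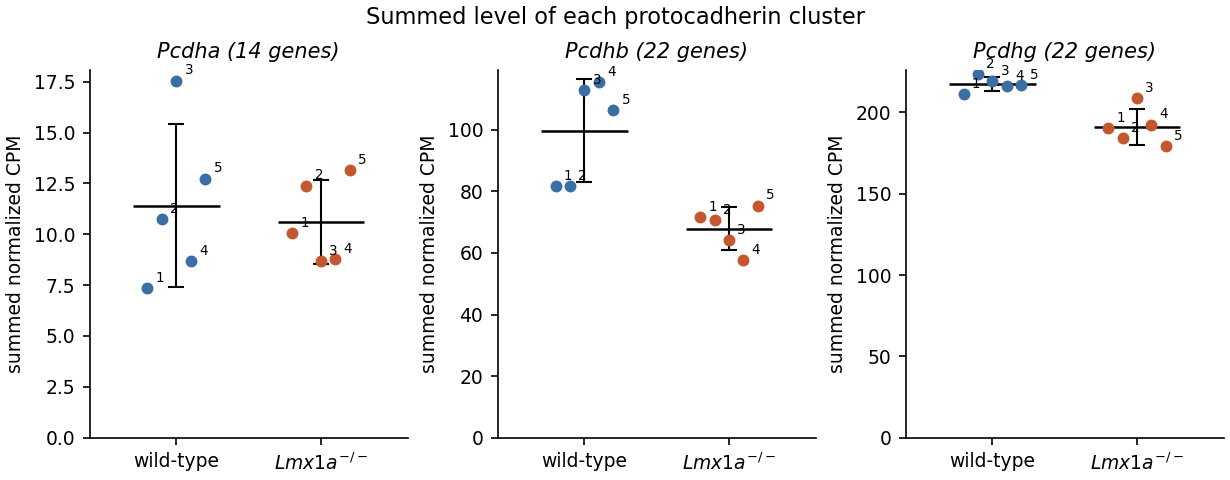
Summed normalized CPM of the Pcdha, Pcdhb and Pcdhg genes by genotype. Each point is 1 embryo with its number, and black lines give the mean and SD of 5 embryos. The Pcdhb sums lie at 81.7 to 116 CPM in wild-type and 57.6 to 75.4 CPM in Lmx1a-/-, the Pcdhg sums at 211 to 224 and 179 to 209 CPM, and the Pcdha sums overlap.

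In the Pcdhb array 20 of 22 genes were tested, 15 had a lower mean in Lmx1a-/-, 9 were lower at an unadjusted p under 0.05, and 3 passed the threshold. Over all genes, 8.7% were lower at that p and 2.29% were called lower. Pcdhb19 was at 10.1, 10.9, 13.0, 14.5 and 12.8 CPM in wild-type and 8.08, 8.10, 5.14, 6.29 and 6.64 CPM in Lmx1a-/- embryos. All wild-type values lay above all Lmx1a-/- values, and the log2 fold change was -0.84 ± 0.17 (edgeR FDR = 0.022), with the call kept in each of the 10 fits that left out 1 library.

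Pcdhb21 was at 3.77, 3.56, 5.41, 6.75 and 5.98 CPM in wild-type and 2.19, 2.93, 3.34, 1.47 and 2.82 CPM in Lmx1a-/- embryos (log2 fold change -1.001 ± 0.27, edgeR FDR = 0.082). Pcdhb22 was at 4.85, 7.53, 8.47, 7.84 and 8.13 CPM in wild-type and 5.09, 3.53, 3.71, 3.10 and 5.04 CPM in Lmx1a-/- embryos (log2 fold change -0.84 ± 0.22, edgeR FDR = 0.066). Pcdhb21 separated the genotypes narrowly, while wild-type embryo 1 lay inside the Lmx1a-/- range of Pcdhb22. These neighbors share 455 exon bases, and with the default overlap setting of the counting, reads there are left uncounted. Whether that setting was used is not given. The calls of Pcdhb21 and Pcdhb22 were kept in 2 and 3 of the 10 fits that left out 1 library.

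By position, the 3 called genes lay at the end of the array nearest Pcdhg. All 7 genes from Pcdhb16 to Pcdhb22 had lower means in Lmx1a-/-, with a median log2 fold change of -0.73, and their sum was 45.6, 54.3, 71.1, 74.8 and 71.7 CPM in wild-type and 42.0, 43.4, 34.4, 30.3 and 38.7 CPM in Lmx1a-/- embryos. Of the 13 tested genes from Pcdhb2 to Pcdhb15, 8 had lower means and none passed FDR 0.1 in edgeR (3 were lower at an unadjusted p under 0.05), with a median of -0.18. The 2 lowest log2 fold changes of the array were among these 13, -1.13 for Pcdhb13 and -1.06 for Pcdhb11, and Pcdhb14 and Pcdhb4 were at -0.87 and -0.82 (edgeR FDR = 0.25, 0.32, 0.15 and 0.13). The boundary between these stretches was set after the values were seen, so the difference carries no test. The stretches also differ in level and precision. Wild-type means were 5.09 to 12.5 CPM with SEs of 0.17 to 0.28 from Pcdhb16 to Pcdhb22. They were 0.55 to 4.80 CPM with SEs of 0.23 to 0.57 for the tested genes from Pcdhb2 to Pcdhb15. Pcdhb16 and Pcdhb17, with Pcdhb19 the most abundant Pcdhb genes in wild-type, were at 12.5 ± 3.72 against 7.53 ± 2.34 CPM and 11.7 ± 3.24 against 7.36 ± 1.03 CPM (edgeR FDR = 0.16 and 0.12). Wild-type embryo 1, the wild-type library with Y-linked transcripts, had the lowest wild-type sum from Pcdhb16 to Pcdhb22. Against it alone the log2 fold changes were -0.56 for Pcdhb19, -0.57 for Pcdhb21, -0.25 for Pcdhb22 and 0.085 for Pcdhb17. They are given as values because an arm of 1 library shows neither a call nor its absence. With the Xist level in the model of all 10 libraries they were -0.60, -0.55, -0.18 and 0.086 (edgeR FDR = 0.56, 0.75, 0.90 and 0.96).

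**Figure D5:**
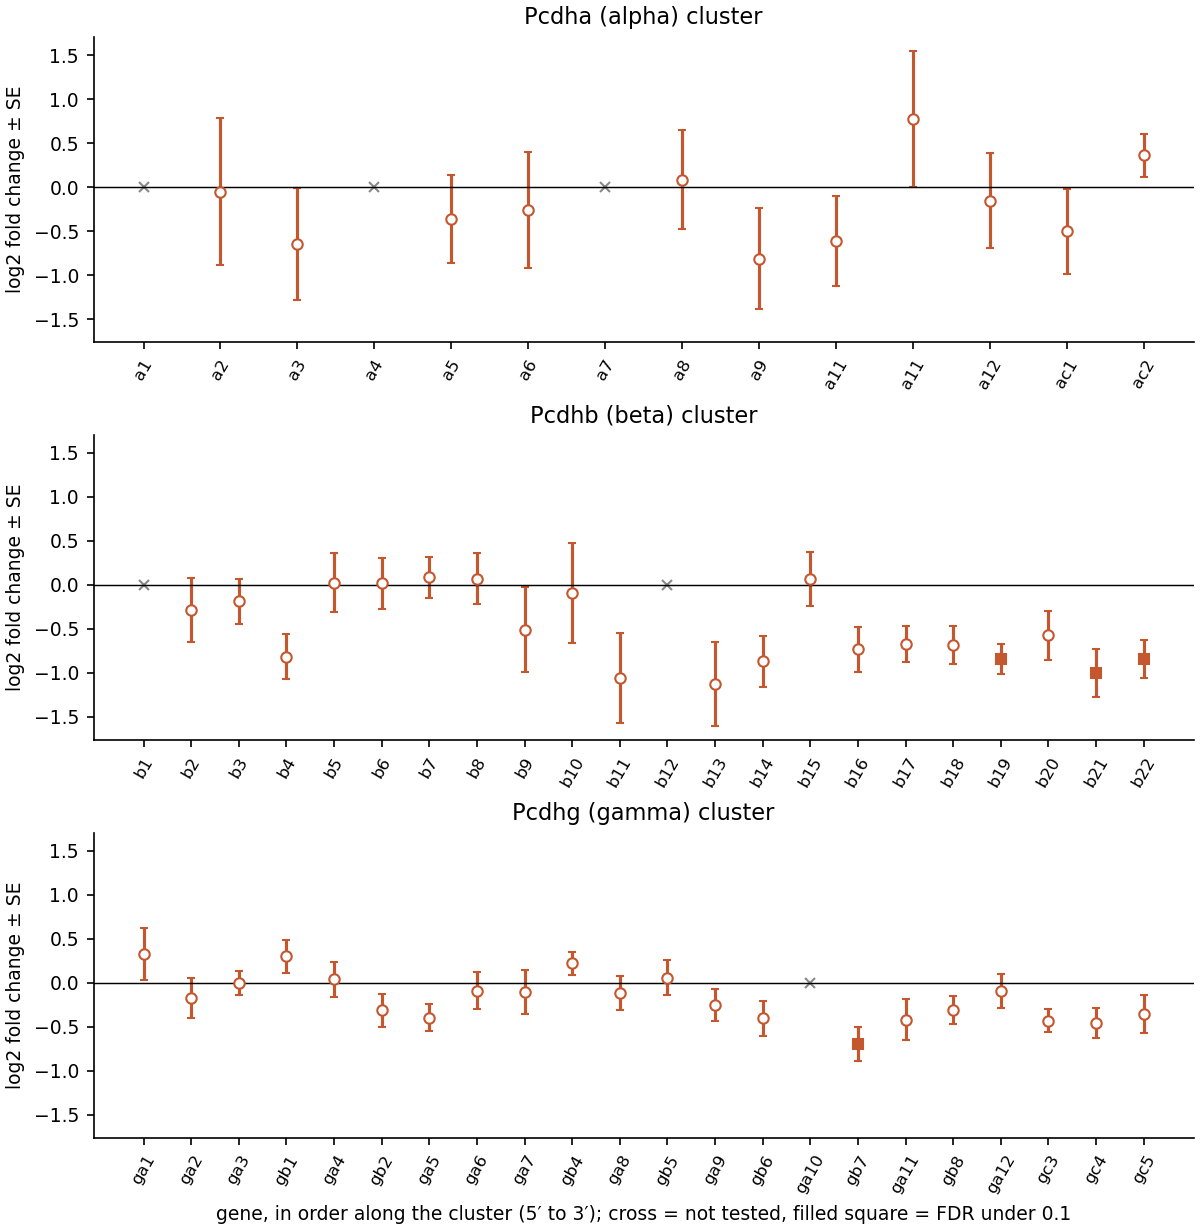
Log2 fold change of Lmx1a-/- over wild-type with its SE for each Pcdha, Pcdhb and Pcdhg gene in its order along the array. Filled squares are past FDR 0.1, and crosses on the zero line stand for genes that were not tested. In Pcdhb, the genes from Pcdhb16 to Pcdhb22 are all below 0 (median -0.73), and in Pcdhg the genes toward the 3′ end have the lower values, with Pcdhgb7 at -0.69.

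In the Pcdhg array 21 of 22 genes were tested, 15 had a lower mean and Pcdhgb7 passed the threshold, beside 2.29% of all genes called lower. Pcdhgb7 was at 10.4, 7.89, 10.5, 10.2 and 11.0 CPM in wild-type and 4.85, 8.26, 6.27, 7.26 and 4.38 CPM in Lmx1a-/- embryos. Wild-type embryo 2 lay below Lmx1a-/- embryo 2, and the other 4 wild-type embryos lay above all Lmx1a-/- embryos (log2 fold change -0.69 ± 0.20, edgeR FDR = 0.091). This call was kept in 1 of the 10 fits that left out 1 library.

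The C-type isoforms of Pcdhg had lower means in Lmx1a-/-. Pcdhgc3, the most abundant clustered gene, was at 33.0, 41.5, 37.0, 36.6 and 34.3 CPM in wild-type and 23.6, 22.2, 33.9, 31.1 and 24.5 CPM in Lmx1a-/- embryos (log2 fold change -0.43 ± 0.13, edgeR FDR = 0.11). Pcdhgc4 was at 8.62, 11.5, 8.15, 8.51 and 9.38 CPM in wild-type and 6.08, 7.77, 7.66, 6.98 and 5.11 CPM in Lmx1a-/- embryos (log2 fold change -0.46 ± 0.17, edgeR FDR = 0.19). The genotypes were separated for Pcdhgc4 and overlapped at Lmx1a-/- embryo 3 for Pcdhgc3. Pcdhgc5 was at 4.41 ± 0.57 and 3.46 ± 0.75 CPM. Pcdhga5, a variable isoform, was also separated, at 8.76 to 10.6 CPM in wild-type and 6.18 to 8.45 CPM in Lmx1a-/- embryos, but did not pass the threshold (edgeR FDR = 0.21).

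Of the other named Pcdhg genes, neither of which passed the threshold, Pcdhga9 was at 15.1 ± 2.00 against 12.7 ± 3.22 CPM and Pcdhgb4 at 14.7 ± 2.60 against 17.2 ± 0.75 CPM (edgeR FDR = 0.53 and 0.44). Along the array, the Spearman correlation of order with log2 fold change was -0.64 over 21 Pcdhg genes and -0.50 over 20 Pcdhb genes, and 0.25 over 11 Pcdha genes. These are descriptions across neighboring genes of the same libraries, which are not independent.

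The Pcdha genes were the scarcest of the clustered members, and none of the 11 tested passed FDR 0.1 in edgeR or an unadjusted p under 0.05. Pcdhac2, a C-type isoform, was the most abundant at 2.58, 2.80, 2.74, 1.40 and 2.55 CPM in wild-type and 2.79, 3.32, 3.17, 3.49 and 2.78 CPM in Lmx1a-/- embryos (log2 fold change 0.36 ± 0.24, edgeR FDR = 0.50). Pcdha5 was at 1.498 ± 0.89 against 1.17 ± 0.75 CPM, Pcdha9 at 1.30 ± 0.51 against 0.74 ± 0.68 CPM and Pcdhac1 at 1.00 ± 0.71 against 0.71 ± 0.18 CPM. At such levels the SE exceeded 0.4 for every tested Pcdha gene but Pcdhac2, and a change of the size seen in Pcdhb could be missed in those genes. Power was not calculated. Reads in the constant exons, which all Pcdha or all Pcdhg transcripts share, fall in several genes at once, so counts of these genes rest on their own exons. Pcdha1, Pcdha4, Pcdha7, Pcdhb1, Pcdhb12 and Pcdhga10 were not tested, and Pcdha1 and Pcdhga10 had no count in any library. Every exon base of Pcdhga10 is shared with other genes.

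The genes that lie within or beside the arrays gave a local comparison. Diaph1, next to Pcdhg, was at 24.9 ± 2.87 and 23.2 ± 2.49 CPM, Taf7, between Pcdhb and Pcdhg, at 30.2 ± 1.64 and 33.2 ± 3.46 CPM, and Slc25a2 under 1 CPM. Gm26672, which overlaps Pcdhga10 on the opposite strand, was at 12.7 ± 2.22 and 9.80 ± 1.5997 CPM (log2 fold change -0.38 ± 0.17), and Gm37446 was under 1 CPM in every library. None of these genes passed the threshold (edgeR FDR = 0.71, 0.51, 0.61, 0.28 and 0.70).

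A list of 43 adhesion partners (catenins, nectins, Fat, Dachsous, Celsr, calsyntenin and desmosomal genes) had 34 genes tested, of which 3 fell and none rose. The background over all genes was 2.29% lower and 1.72% higher. Celsr1, of planar cell polarity, was at 197 ± 4.95 and 159 ± 17.5 CPM (log2 fold change -0.31 ± 0.08, edgeR FDR = 0.063), and Ctnna3, an alpha-catenin, at 2.43 ± 0.87 and 1.01 ± 0.35 CPM (-1.26 ± 0.35, FDR = 0.089). Dsc2, a desmosomal cadherin, was at 53.3 CPM in wild-type embryo 4 and averaged 12.7 ± 22.8 and 0.90 ± 0.82 CPM (-3.80 ± 1.05, FDR = 0.086). Without wild-type embryo 4 its log2 fold change was -1.503 (edgeR FDR = 0.27), and the calls of Dsc2, Celsr1 and Ctnna3 were kept in 4, 4 and 2 of the 10 edgeR fits that left out 1 library. Jup and Nectin4 were likewise high in that embryo (78.8 and 29.5 CPM) and not called (edgeR FDR = 0.12 and 0.11). The abundant catenins Ctnnb1 and Ctnna1 were not called, with Ctnnb1 at 407 ± 3.04 and 385 ± 31.4 CPM and Ctnna1 at 211 ± 7.16 and 203 ± 11.3 CPM.

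A second list held 19 regulators and effectors of the clustered protocadherins, such as Ctcf, cohesin, Smchd1 and the Wave complex. Of 18 tested, none passed FDR 0.1 in edgeR, and 5 were higher and none lower at an unadjusted p under 0.05. At that p, 7.66% of all genes were higher and 8.7% lower. The cohesin genes Smc1a and Smc3 were at 284 ± 18.3 against 359 ± 75.2 CPM and 416 ± 31.5 against 526.3 ± 111 CPM (FDR = 0.18 each), Nipbl at 547 ± 47.3 against 639 ± 88.8 CPM, Stag1 at 218 ± 10.6 against 241 ± 16.3 CPM and Fyn at 52.7 ± 6.39 against 62.2 ± 6.43 CPM. Ctcf itself was at 191 ± 7.44 and 195 ± 13.5 CPM.

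Markers of the CH, of its Cajal-Retzius cells and of other cells in the dissection moved with genotype beside these results. The background over all genes was 2.29% called lower and 1.72% higher. Of the Cajal-Retzius list, 5 genes fell and 1 rose of 9 tested. The sums of this list were 534 to 809 CPM in wild-type and 288 to 475 CPM in Lmx1a-/- libraries. Of the cortical hem list 5 fell and 1 rose of 12, and the gene that rose was Lmx1a itself, the mutated gene. The choroid plexus list had 3 of 10 genes called lower, while none of the 9 neuronal, 8 microglial or 8 tested red blood cell markers was called by edgeR at FDR under 0.1 (1 neuronal and 1 microglial marker were higher and 5 red blood cell markers lower at an unadjusted p under 0.05). Their part in the values of Pcdhb and Pcdhg genes was not tested. With the Xist level added to the model, no member was called by edgeR at FDR under 0.1, and 2 were lower and 5 higher at an unadjusted p under 0.05, beside 9.42% of all genes at that p in the same fit. With the choroid plexus level added none was called either, with 12 lower and 4 higher at an unadjusted p under 0.05 beside 7.17% of all genes, and with the surface epithelium level none, with 6 lower and 3 higher beside 8.32% of all genes. These levels follow genotype closely, with correlations to it of -0.83, -0.80 and -0.66 over the 10 libraries, so genotype and each of them cannot be told apart fully.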

How the data were processed

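CH of 5 wild-type and 5 Lmx1a-/- embryos was profiled by paired-end RNA sequencing of poly(A) RNA. The authors trimmed reads with Trimmomatic, checked them with FastQC 0.11.8, aligned them to GRCm38 with STAR 2.7.1a and Ensembl annotation and deposited raw read counts per gene from HTSeq 0.11.2. The strand and overlap settings of the counting are not given in the sources used here. With the default overlap setting, reads in exons shared by several genes are left uncounted.

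Of 52508 rows, 281 repeats were dropped, leaving 52227 genes. Symbols were matched by Ensembl identifier, and exons and shared bases were taken from a GENCODE annotation of GRCm38. The filter and threshold follow the study: at least 10 counts in at least 3 libraries, and FDR under 0.1 after Benjamini-Hochberg adjustment over all 21664 genes. The test was edgeR 4.0.16 (R 4.3.3), quasi-likelihood with a trended dispersion and TMM scaling, with genotype as the only term. The study does not name its edgeR test, and it reported more genes lower and more genes higher at this threshold than were called here. SE is the log2 fold change divided by the square root of F. CPM is scaled by TMM library sizes. On simulated counts with 200 changed genes among 21024 tested, 91.5% were recovered and 10.73% of calls were false. Recovery at the fold changes and levels of the called members was not tested. Totals were 19145952 to 36462780 counts. Alternatives covered scaling, filter, test (DESeq2 1.42.0 among them), threshold, covariates, the replicate block and leaving out each library.

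The same-numbered embryos of the 2 genotypes did not deviate together (correlations -0.099 to 0.013), so the numbers do not pair them. The members and lists were chosen with earlier results of these data known. The genes named are every tested member outside the arrays; within each array the 3 most abundant, the C-type isoforms and those past the threshold or among the 5 smallest p; and, in the partner lists, those past the threshold and the 5 smallest p. Pcdhb4, Pcdhb11, Pcdhb13, Pcdhb14, Pcdhga5, Ctnnb1, Ctnna1, Ctcf and the genes beside the arrays were named after their values were seen. Promoter windows are from RefSeq (GRCm38.p6).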

Additional observations from a re-analysis of the deposited data

Results flagged for a closer look

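Of 92 groups of 5 embryos examined for the named members, 10 held an embryo set apart from the other 4 by Dixon's criterion, which chance meets in about 1 group in 20. Wild-type embryo 3 was the high value for Pcdh11x (11.5 CPM, against 4.06 to 4.77 CPM in the other wild-type embryos), Pcdha5 (3.09 CPM, against 1.08 to 1.12 CPM), Pcdh20 (1.12 CPM, against 0.037 to 0.32 CPM) and Cdh19 (0.647 CPM, against 0 to 0.19 CPM). Wild-type embryo 4 was high for Cdh1 (110 CPM, against 3.47 to 14.5 CPM), as was Lmx1a-/- embryo 3 among the Lmx1a-/- embryos (15.2 CPM, against 0.82 to 4.39 CPM). Wild-type embryo 4 was low for Pcdhac2 (1.4 CPM, against 2.55 to 2.80 CPM). Wild-type embryo 1 was low for Pcdhb22 (4.85 CPM, against 7.53 to 8.47 CPM) and wild-type embryo 2 for Pcdhgb7 (7.89 CPM, against 10.2 to 11.0 CPM). Lmx1a-/- embryo 5 was high for Pcdha9 (1.91 CPM, against 0.19 to 0.68 CPM).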

How the results depend on the processing

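Beside 870 genes, 4 members lower, 2 members higher and 3 adhesion partners called, DESeq2 gave 1766, 10, 4 and 8, edgeR's likelihood ratio test 1360, 9, 4 and 8, the Xist covariate 27, 0, 0 and 0, the choroid plexus covariate 22, 0, 0 and 0, and the surface epithelium covariate, chosen after seeing the data, 176, 0, 0 and 1. The libraries with Y-linked transcripts alone, where the wild-type arm is 1 library assumed to vary like the Lmx1a-/- group, gave 130, 0, 1 and 0, the mesenchyme covariate 374 genes, 1 member lower and 0 partners, and FDR under 0.05 gave 448 genes, 1 member lower and 0 partners. With edgeR's newer quasi-likelihood setting 8 members were lower, without a filter 2 members were lower and 8 partners called, with a 1 CPM filter 5 partners were called, and with library size scaling alone 1. Dsc2 turned to 0.00852 (log2) with the surface epithelium covariate. At an unadjusted p under 0.05, members lower and higher numbered 2 and 5 with the Xist covariate and 2 and 5 in the libraries with Y-linked transcripts. The cause of these shifts was not tested.

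Leaving out 1 library gave 448 to 1058 genes, 1 to 6 members lower, 2 to 6 members higher and 0 to 7 partners. A single member was lower without wild-type embryo 3, 4 or 5 or Lmx1a-/- embryo 4, 2 without wild-type embryo 2 or Lmx1a-/- embryo 1, 2 or 5, and 6 without Lmx1a-/- embryo 3, and 6 were higher without wild-type embryo 3. The log2 ratio of sums was -0.62 to -0.50 for Pcdhb, -0.22 to -0.16 for Pcdhg and -0.23 to 0.10 for Pcdha.

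With the replicate block 1 member was lower (Pcdhb19) and 0 partners were called, while Cdh6 and Pcdh7 remained called. The numbers do not pair the embryos, since no embryo correlated best with its own number.

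Genes under about 1 CPM, most of the Pcdha genes among them, had SEs too wide to show a change of the size seen in Pcdhb.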
